A study of Oryza sativa with 6 samples.

Results

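The core histone genes and a set of DNA replication genes were described in rice (Oryza sativa) roots. They were taken from the deposited expression table by their descriptions: a description beginning with "Histone H", or one naming a DNA replication licensing factor, flap endonuclease 1 or proliferating cell nuclear antigen (PCNA). This gave 45 of 40745 rice gene models, made up of 37 histones (7 H2A, 13 H2B, 5 H3, 2 H3.3 and 10 H4), 5 licensing factors (MCM2, MCM3, MCM5, MCM6 and MCM7), 2 flap endonucleases (FEN1a and FEN1b) and 1 PCNA gene. No linker histone H1 and no MCM4 was among them. Wild-type plants grown in a greenhouse were given 0.5% Fo10 with 10 µM cadmium (Fo+Cd, 3 libraries) or 10 µM cadmium alone (Cd, 3 libraries). What Fo10 is, the cultivar and the age of the plants are not stated in the labels. Every library came from cadmium-treated roots, so cadmium was shared by both groups and its own effect was not measured. The labels do not say that the 3 libraries of a group came from separate plants or cultures. The p-values therefore rest on the spread among the 6 libraries alone, which may be technical.

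When a cell copies its DNA it must also make the histones that package the new strand, with H2A, H2B, H3 and H4 each present in a pair per nucleosome. Most histone genes are therefore transcribed in S phase, together with the MCM helicase subunits that open the double helix, the PCNA ring that holds the polymerases on the template, and the FEN1 nuclease that trims the flaps between lagging-strand fragments. Histone H3.3 is a replacement form that is made throughout the cell cycle and placed in chromatin outside replication. In roots, DNA replication takes place mostly in the meristem near the tip and in lateral root primordia. Plant histone mRNAs carry poly(A) tails, so they are kept in poly(A)-selected libraries such as these.

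Levels were given as TPM, reads per transcript length scaled to a common total per library. The listed features of a library summed to 963281 to 966767 TPM, and the number of reads behind a value is unknown. Libraries of the same group correlated at 0.957 to 0.977 over tested features (log2(TPM + 1), Pearson), and libraries of different groups at 0.942 to 0.954. Summed over 27 shoot genes (chlorophyll-binding, photosystem and Rubisco small-subunit genes), the level was 23.6 to 33.2 TPM in Fo+Cd and 24.5 to 26.9 TPM in Cd, and 7 of the 27 were listed at 0 in all libraries. Summed over 20 genes taken by description as root markers (Casparian strip membrane proteins, ammonium transporters, a nicotianamine synthase and expansins), it was 912 to 1075 TPM in Fo+Cd and 799 to 876 TPM in Cd. The genes of this list differed between the groups in both directions, as given below, so the sum is no plain measure of root tissue.

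None of the histone or replication genes passed the test between Fo+Cd and Cd. Of the 45 genes, 40 were tested (at least 1 TPM in at least 3 libraries), and the other 5, 2 H2A and 3 H2B genes, were listed at 0 in all 6 libraries. With limma on log2(TPM + 1), 0 of the 40 had an adjusted p under 0.05 (Benjamini-Hochberg over 21166 features), where 2.45% of all tested features did. None had an unadjusted p under 0.05 either, against 15.4% of all tested features. The smallest adjusted p was 0.349, for the H3 gene BGIOSGA021865. In bulk roots, the number of cells that make a transcript and its level per cell cannot be told apart. The median log2 fold change of the 40 was -0.05, and that of all tested features was 0.00. A p that misses the threshold does not show that the groups were alike, and the 95% intervals of the differences give the sizes still allowed. For the 38 genes that averaged at least 5 TPM, these intervals, which are not adjusted for the number of genes, all lay between -0.70 and 0.66 on the log2(TPM + 1) scale, inside the bounds of a 2-fold change. Fo+Cd and Cd values did not overlap in 3 of the 40 genes, against 21.3% of all tested features.

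**Figure D1:**
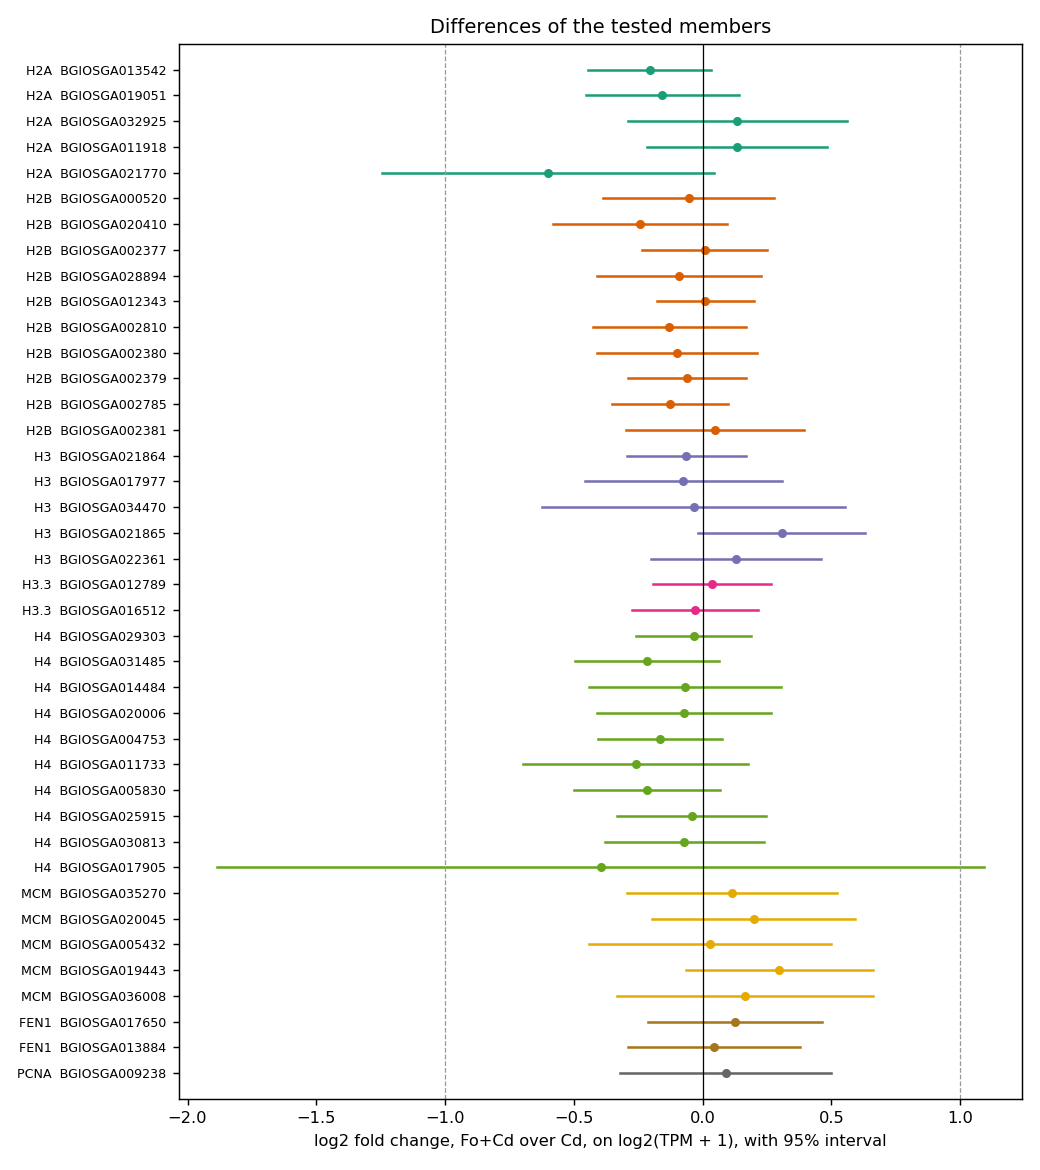
Log2 fold change of Fo+Cd over Cd on the log2(TPM + 1) scale for the 40 tested histone and replication genes, with 95% intervals from limma (3 libraries per group), coloured by class. All 40 intervals include 0, and the intervals that cross a dashed line (a 2-fold change) are those of 2 genes with low levels, the H2A gene BGIOSGA021770 and the H4 gene BGIOSGA017905.

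The libraries of the Fo+Cd group differed among themselves in these genes more than the group means differed. Fo+Cd replicate 1 was the highest of all 6 libraries in 26 of the 40 tested genes, against 27.7% of all tested features. It was above both other Fo+Cd libraries in 33 of the 40, against 42.1% of all tested features. The median of the ratio of Fo+Cd replicate 1 to the mean of Fo+Cd replicates 2 and 3 was 1.32 over the 40 genes and 1.02 over all tested features. Fo+Cd replicate 2 was the lowest of the 6 libraries in 22 of the 40, against 20.4% of all tested features. The genes of a set are not independent of each other, so these shares describe the libraries and are not tests.

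**Figure D2:**
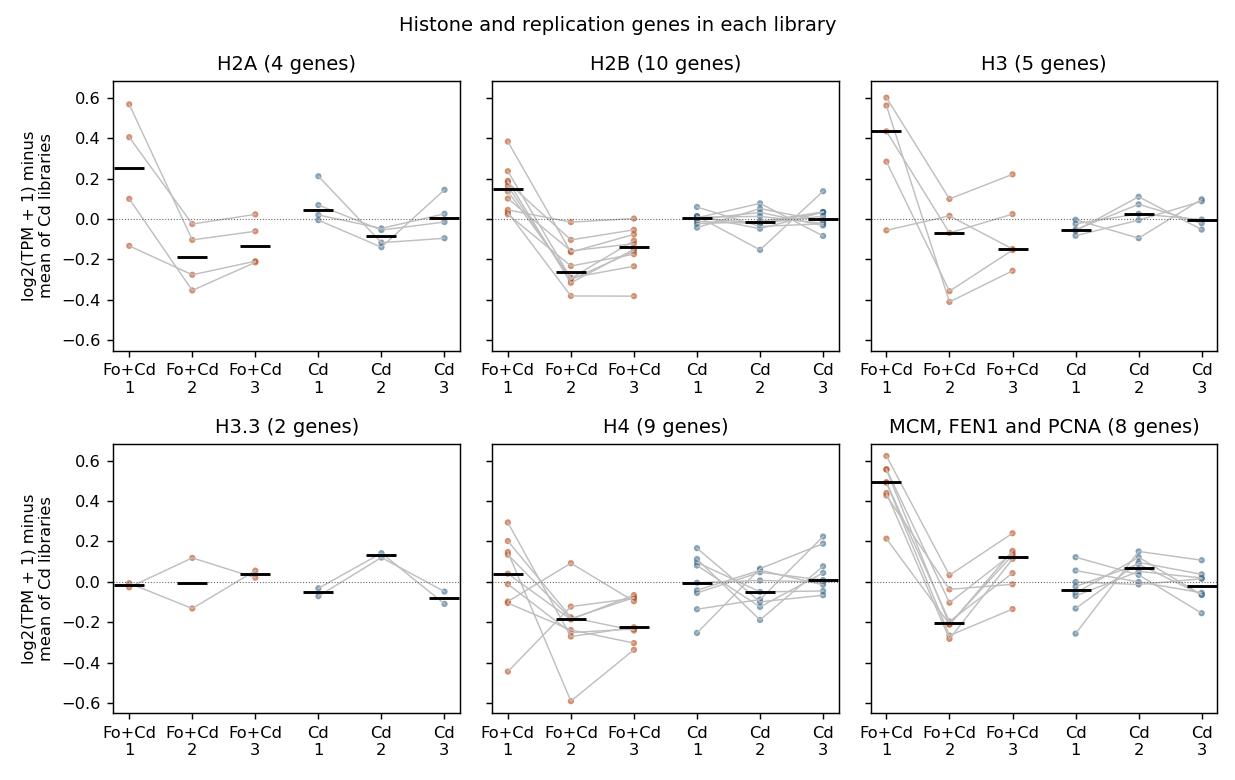
Level of each gene averaging at least 5 TPM in each library, as log2(TPM + 1) minus the mean of that gene over the Cd libraries, by class. Points joined by grey lines are 1 gene (replicates have no order), and black bars are class medians. In Fo+Cd replicate 1 the 8 MCM, FEN1 and PCNA genes had a median of 0.49 above the Cd mean, whereas both H3.3 genes stayed near 0.

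The comparison was also made without Fo+Cd replicate 1 and without Fo+Cd replicate 2. These libraries were picked for being high or low in these genes, so a shift of the values away from the library left out follows from the choice and shows no lower or higher level in Fo+Cd. With Fo+Cd replicate 1 left out, 35 of the 40 genes had a log2 fold change below 0, against 53.7% of all tested features, where with all libraries 24 of the 40 did. Their median was then -0.12, against -0.02 for all tested features. Unadjusted p was under 0.05 in 11 of the 40, all lower in Fo+Cd, against 15.8% of all tested features in the same comparison, and none had an adjusted p under 0.05 (smallest 0.147). With Fo+Cd replicate 2 left out, 23 of the 40 were above 0 and 17 below, the median was 0.02, and 4 had an unadjusted p under 0.05 (2 higher and 2 lower), against 15.4% of all tested features, with none called.

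Summed over all 45 genes, the level was 11601, 9865 and 9992 TPM in Fo+Cd replicates 1, 2 and 3, against 10804, 10931 and 10876 TPM in Cd replicates 1, 2 and 3. Fo+Cd replicate 1 lay above the Cd libraries and the other two Fo+Cd libraries below them, so the means, 10486 ± 967 TPM in Fo+Cd and 10870 ± 63.5 TPM in Cd (SD, n = 3 each), were close while the spreads were not. The histones held 1.17%, 1.00% and 1.01% of the listed TPM in Fo+Cd replicates 1, 2 and 3, against 1.10%, 1.11% and 1.10% in the Cd libraries. By class the same arrangement, Fo+Cd replicate 1 above and Fo+Cd replicates 2 and 3 below all Cd libraries, held for summed H2A, H2B and H3. Summed H4 was 3320, 3119 and 3012 TPM in Fo+Cd, below the 3391, 3341 and 3394 TPM in Cd in every library. The margin was narrow, between 3320 TPM in Fo+Cd replicate 1 and 3341 TPM in Cd replicate 2. Of the 10 H4 genes, 1 had groups that did not overlap, against 21.3% of all tested features. Summed H3.3 was 1287, 1339 and 1335 TPM in Fo+Cd and 1254, 1426 and 1244 TPM in Cd, with overlapping groups. As these genes were chosen with earlier results known, the sums were not tested.

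**Figure D3:**
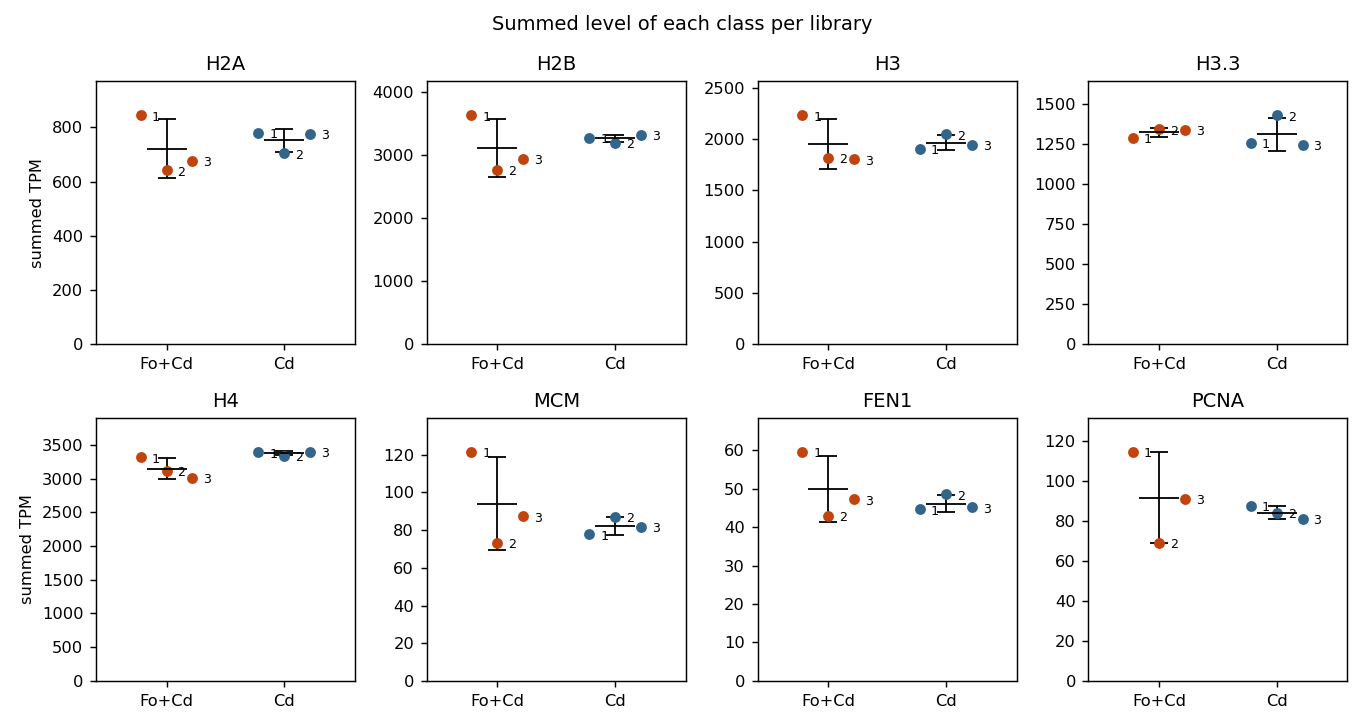
Summed TPM of each class in each library (numbered points, replicates 1 to 3), with the mean (bar) and SD of each group. Fo+Cd replicate 1 is the highest library for H2A, H2B, H3, MCM, FEN1 and PCNA, and not for H3.3 or H4.

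H2A and H2B form the dimers that flank the H3-H4 core of the nucleosome. Of 7 H2A genes 5 were tested, with a median log2 fold change of -0.16 (2 above and 3 below 0). This median depended on a gene of low level. With at least 5 TPM required in 3 libraries, 4 H2A genes were tested, with a median of -0.01 (2 above and 2 below 0). The most abundant, BGIOSGA013542, was at 239, 217 and 227 TPM in Fo+Cd replicates 1, 2 and 3, against 262, 238 and 290.4 TPM in Cd (log2 fold change -0.21, SE 0.102, adjusted p = 0.397, limma). Its groups overlapped by a margin of about 1 TPM, at the highest Fo+Cd and the lowest Cd value. BGIOSGA019051 had 255, 186 and 204 TPM in Fo+Cd, on both sides of the 241, 229.9 and 242 TPM in Cd (log2 fold change -0.16, adjusted p = 0.606). The Fo+Cd libraries thus bracketed the Cd libraries for this gene, which kept within 6.57 TPM (SD) in Cd and spread by 35.6 TPM in Fo+Cd. The largest H2A difference was in a gene of low level, BGIOSGA021770, at 1.66, 3.34 and 2.45 TPM in Fo+Cd and 4.80, 2.68 and 5.51 TPM in Cd (log2 fold change -0.60, 95% interval -1.25 to 0.04, adjusted p = 0.356). It was the 1 tested H2A gene in which Fo+Cd replicate 1 was the lowest library.

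Of 13 H2B genes 10 were tested, all of them above 100 TPM, with a median log2 fold change of -0.08 and a range of -0.24 to 0.05. In all 10, Fo+Cd replicate 1 was above both other Fo+Cd libraries, and in 7 it was the highest of the 6. H2B.11 (BGIOSGA000520), the most abundant, had 801, 555 and 631 TPM in Fo+Cd and 674, 669.7 and 696 TPM in Cd (log2 fold change -0.05, SE 0.141, adjusted p = 0.893). Again the Cd values lay between the extremes of Fo+Cd. H2B.9 (BGIOSGA020410) had the largest H2B difference, with 489.6, 367 and 367 TPM in Fo+Cd and 483, 430.2 and 526 TPM in Cd (log2 fold change -0.24, 95% interval -0.58 to 0.10, adjusted p = 0.473). In this gene Fo+Cd replicates 2 and 3 were below all Cd libraries and Fo+Cd replicate 1 was among them. The H2B.1 gene BGIOSGA012343, named after its values were seen, varied least of the class in Fo+Cd, at 304, 292 and 295 TPM, with 307, 288 and 290.2 TPM in Cd. With all libraries, 0 of the 10 had an unadjusted p under 0.05. Without Fo+Cd replicate 1 all 10 H2B genes were below 0 (median -0.20), against 53.7% of all tested features. Unadjusted p was then under 0.05 in 5 with none called, against 15.8% of all tested features. That library was left out for being high in these genes, so this shift follows from the choice and shows no lower level. Without Fo+Cd replicate 2, 6 of the 10 were above 0 (median 0.01) and 0 had an unadjusted p under 0.05, against 15.4% of all tested features.

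H3 and H4 form the tetramer at the centre of the nucleosome. The 5 genes described as H3 share 1 protein record in their descriptions, as do the 2 H3.3 genes and the 10 H4 genes, so reads may be shared between near-identical copies and the values of single genes are uncertain. Among the H3 genes, 4 had their highest value in Fo+Cd replicate 1. The H3 gene BGIOSGA021865 had 206, 145 and 158 TPM in Fo+Cd, above the 131, 143 and 134 TPM in Cd in all 3 libraries (169.7 ± 32.0 and 136 ± 6.23 TPM, SD, n = 3; log2 fold change 0.31, 95% interval -0.02 to 0.63, adjusted p = 0.349). The closest pair, Fo+Cd replicate 2 and Cd replicate 2, were 145 and 143 TPM, and the log2 fold change was 0.16 without Fo+Cd replicate 1. The widest spread belonged to BGIOSGA034470, named after its values were seen, with 275, 139 and 155 TPM in Fo+Cd and 185, 174 and 199 TPM in Cd. There Fo+Cd replicate 1 was 1.86 times the mean of the other two Fo+Cd libraries, the highest such ratio of the 38 genes averaging at least 5 TPM, while the log2 fold change between groups was -0.03.

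The most abundant H3 gene, BGIOSGA021864, was arranged differently, at 985, 1036 and 924 TPM in Fo+Cd and 984, 1106 and 988 TPM in Cd (log2 fold change -0.06, adjusted p = 0.809). Its highest value was in Cd replicate 2, and Fo+Cd replicate 1 was 1.01 times the mean of the other two Fo+Cd libraries. Neither H3.3 gene had its highest value in Fo+Cd replicate 1. BGIOSGA012789, the more abundant, had 839, 929 and 867 TPM in Fo+Cd and 814, 929.7 and 827 TPM in Cd (log2 fold change 0.04, 95% interval -0.19 to 0.27, adjusted p = 0.896). BGIOSGA016512 had 448, 411 and 468 TPM in Fo+Cd and 440.1, 497 and 417 TPM in Cd (log2 fold change -0.03, adjusted p = 0.929). In both genes the groups overlapped and Cd replicate 2 was the highest library. The H3.3 genes held 36.6%, 42.4% and 42.5% of the TPM of H3 and H3.3 together in Fo+Cd replicates 1, 2 and 3, against 39.7%, 41.1% and 39.0% in Cd. Their share was lowest in Fo+Cd replicate 1, where summed H3 was highest. This follows from the class sums and is no separate observation. Over the Fo+Cd libraries summed H3.3 varied less than summed H3 (SD 29.0 and 242 TPM, n = 3). Over the Cd libraries it varied more (SD 102 and 75.2 TPM, n = 3).

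All 10 H4 genes were tested, and all 10 had a log2 fold change below 0 (median -0.12), against 49.6% of all tested features. The number was the same under TMM-type scaling and quantile normalization. With at least 5 TPM required in 3 libraries, 9 H4 genes were tested. All 9 were below 0, against 48.9% of all tested features, with a median of -0.07. Reads may be shared between these copies, so the 10 signs are not separate observations, and they include BGIOSGA017905, at the edge of the filter. None passed, the smallest adjusted p being 0.439, and 8 or 9 of the 10 were below 0 when Cd replicate 1, Cd replicate 3 or any 1 Fo+Cd library was left out. Levels per transcript length ranged from 1.93 to 1181 TPM over the 6 libraries between genes of the same described protein. The most abundant, BGIOSGA029303, had 1116, 1273 and 1117 TPM in Fo+Cd and 1190.2, 1199.5 and 1193 TPM in Cd (log2 fold change -0.03, adjusted p = 0.901). Fo+Cd replicate 2 was its highest library and Fo+Cd replicate 1 its lowest. BGIOSGA031485 had 399.7, 499.9 and 514 TPM in Fo+Cd, below the 529, 566 and 539 TPM in Cd in all 3 libraries (471 ± 62.4 and 545 ± 19.5 TPM, SD, n = 3; log2 fold change -0.22, 95% interval -0.49 to 0.06, adjusted p = 0.439). Its lowest value was again in Fo+Cd replicate 1, and its log2 fold change was -0.10 without that library.

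The opposite arrangement was seen in H4 genes such as BGIOSGA014484, named after its values were seen, at 560.4, 379 and 391 TPM in Fo+Cd and 439.8, 472 and 459.8 TPM in Cd. BGIOSGA029303 held 33.6%, 40.8% and 37.1% of all H4 TPM in Fo+Cd replicates 1, 2 and 3, against 35.1%, 35.9% and 35.1% in Cd. The part of shared reads in these unlike arrangements of H4 genes was not tested. Of the 10 H4 genes, 4 had their highest of 6 values in Fo+Cd replicate 1 and 3 their lowest. One of these 3, BGIOSGA017905, was listed at 0 in Fo+Cd replicate 1 and at 4.66 and 0.93 TPM in Fo+Cd replicates 2 and 3, with 2.23, 1.12 and 2.63 TPM in Cd (log2 fold change -0.40, 95% interval -1.88 to 1.09). It was at the edge of the filter, and no direction can be read from it.

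The MCM proteins form the hexameric helicase that licenses origins and unwinds DNA at the fork. The 5 genes found here do not include MCM4. All 5 had their highest value in Fo+Cd replicate 1 and a log2 fold change above 0 (median 0.17, range 0.03 to 0.30), and none passed. MCM6 (BGIOSGA019443) had 21.2, 13.7 and 16.0 TPM in Fo+Cd, above the 13.4, 13.3 and 13.5 TPM in Cd in all 3 libraries (17.0 ± 3.81 and 13.4 ± 0.14 TPM, SD, n = 3; log2 fold change 0.30, 95% interval -0.07 to 0.66, adjusted p = 0.414). The margin between the groups was under 1 TPM, and the log2 fold change was 0.14 without Fo+Cd replicate 1. MCM3 (BGIOSGA020045) had 28.4, 17.6 and 21.0 TPM in Fo+Cd and 18.1, 19.7 and 19.3 TPM in Cd (log2 fold change 0.20, adjusted p = 0.620). Here Fo+Cd replicate 2 was below every Cd library.

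MCM2 (BGIOSGA035270) had 29.6, 18.0 and 21.4 TPM in Fo+Cd and 20.4, 22.1 and 19.8 TPM in Cd (log2 fold change 0.11, adjusted p = 0.805). MCM7 (BGIOSGA036008) had 19.9, 11.3 and 14.8 TPM in Fo+Cd and 10.9, 14.8 and 14.3 TPM in Cd (log2 fold change 0.17, adjusted p = 0.760). In MCM5 (BGIOSGA005432) the values were 22.3, 12.8 and 14.1 TPM in Fo+Cd and 14.9, 17.0 and 14.8 TPM in Cd (log2 fold change 0.03, adjusted p = 0.962). In each of these genes the groups overlapped, with Fo+Cd replicate 1 above every Cd library. Without Fo+Cd replicate 1 the median of the 5 MCM genes was -0.03 and without Fo+Cd replicate 2 it was 0.35. These libraries were picked for being high or low in the histone and replication genes, so both shifts follow from the choice. With any 1 other library left out the median was 0.10 to 0.22. In the comparison without Fo+Cd replicate 1, 2 of the 5 were above 0 and 3 below.

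PCNA (BGIOSGA009238), the sliding clamp, had 114, 69.0 and 91.1 TPM in Fo+Cd and 87.5, 84.1 and 81.0 TPM in Cd (91.5 ± 22.7 and 84.2 ± 3.25 TPM, SD, n = 3; log2 fold change 0.09, 95% interval -0.32 to 0.50, adjusted p = 0.848). The Fo+Cd libraries again lay on both sides of Cd, and the log2 fold change was -0.08 without Fo+Cd replicate 1 and 0.28 without Fo+Cd replicate 2. FEN1a (BGIOSGA017650) had 41.7, 29.9 and 30.5 TPM in Fo+Cd and 27.9, 32.9 and 31.6 TPM in Cd (log2 fold change 0.13, adjusted p = 0.726). FEN1b (BGIOSGA013884), at a lower level, had 17.8, 13.0 and 16.8 TPM in Fo+Cd and 16.7, 15.6 and 13.6 TPM in Cd (log2 fold change 0.05, adjusted p = 0.914). All 8 replication genes were above 0 with all libraries, where 49.6% of all tested features were below 0. Without Fo+Cd replicate 1, 6 of the 8 were below 0, against 53.7% of all tested features. That library was picked for being high in these genes, so this shift follows from the choice.

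The spread between libraries can be set out by the coefficient of variation (CV, the SD as a percent of the mean). Over the 40 genes the median CV was 17.3% in Fo+Cd and 5.80% in Cd, where over all tested features it was 13.5% in Fo+Cd and 10.7% in Cd. The CV was larger in Fo+Cd than in Cd in 32 of the 40 genes, against 58.0% of all tested features. The median CV of the 40 genes in Fo+Cd was smallest with Fo+Cd replicate 1 left out. Over Fo+Cd replicates 2 and 3 alone, a calculation added after the data were seen, the median CV of the 40 genes was 6.02%, against 8.93% over all tested features. For the 40 genes it was 18.0% without Fo+Cd replicate 2 and 22.4% without Fo+Cd replicate 3, against 10.8% and 13.4% over all tested features. Leaving out a library already seen to lie apart narrows the spread, so the fall without Fo+Cd replicate 1 follows from the choice. With all libraries, the 10 H2B genes had a median CV of 16.9% in Fo+Cd and 2.59% in Cd. For the 5 MCM genes it was 25.9% in Fo+Cd and 5.74% in Cd. Without Fo+Cd replicate 1 the median in Fo+Cd was 2.83% for H2B and 12.3% for MCM, against 8.93% over all tested features. These are CVs over 2 libraries, so they cannot be set directly against the CVs over 3 Cd libraries. Both H3.3 genes went the other way, with a median CV of 5.88% in Fo+Cd and 8.23% in Cd. With 3 libraries per group a CV is imprecise, and the difference in spread was not tested.

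**Figure D4:**
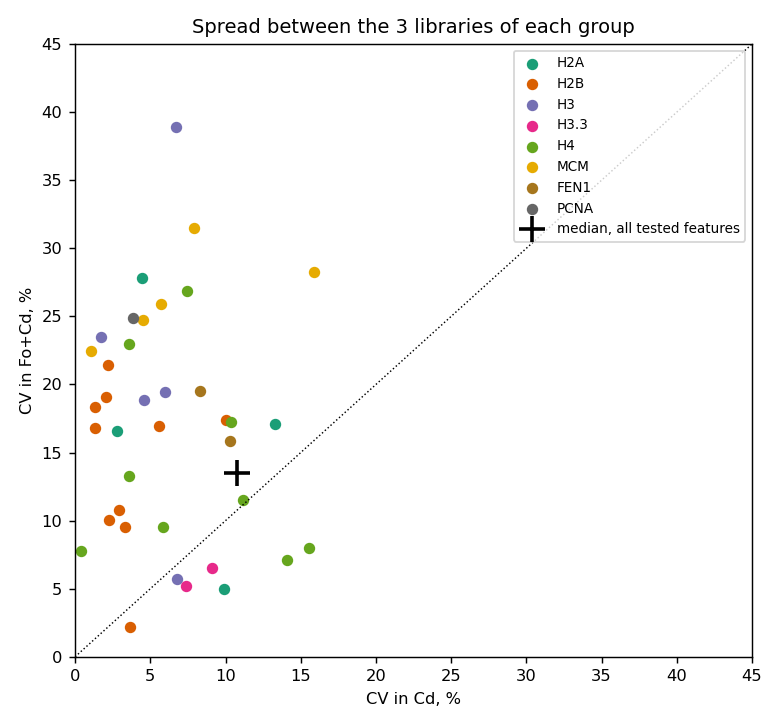
CV between the 3 libraries of a group for each histone or replication gene averaging at least 5 TPM, Fo+Cd on the vertical and Cd on the horizontal axis, with equal CVs on the dotted line. Most H2A, H2B, H3, H4, MCM, FEN1 and PCNA genes lie above the line, and both H3.3 genes lie below it. The median of all tested features (cross) is at 13.5% in Fo+Cd and 10.7% in Cd.

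Genes that act beside these in DNA synthesis and cell division were taken from lists by description. Of 7 tested genes of replication initiation (origin recognition subunits, GINS subunits and MCM10) 0 were called by limma, with 0 at an unadjusted p under 0.05 and a median log2 fold change of -0.01. The smallest p was that of origin recognition subunit 6 (BGIOSGA023868), at 5.35 ± 1.55 TPM in Fo+Cd and 6.74 ± 1.02 TPM in Cd (SD, n = 3, adjusted p = 0.538). Of 20 tested genes of the fork (polymerase and primase subunits, replication factors, ligases and topoisomerases) 0 were called and 0 had an unadjusted p under 0.05, with a median of 0.11. The polymerase delta small subunit (BGIOSGA011533) had the smallest p, with 5.25 ± 0.733 TPM in Fo+Cd and 6.50 ± 0.703 TPM in Cd (adjusted p = 0.434). None of 4 genes of nucleotide supply and none of 4 of chromatin assembly was called or had an unadjusted p under 0.05. The smallest p in each belonged to a thymidine kinase (BGIOSGA011699, 25.4 ± 3.57 TPM in Fo+Cd and 22.4 ± 1.88 TPM in Cd) and to the histone chaperone NAP1;1 (BGIOSGA022322, 83.6 ± 10.8 TPM in Fo+Cd and 72.4 ± 5.96 TPM in Cd).

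Counts at an unadjusted p under 0.05 in the lists that follow are to be read against the 15.4% of all tested features with such a p, and those of the cyclins, mitosis and histone-modifying lists were below that share. Of 14 tested cyclins and cell cycle regulators 0 were called and 1 had an unadjusted p under 0.05, a putative cyclin-D6-1 (BGIOSGA024108) at 6.73 ± 0.501 TPM in Fo+Cd and 8.83 ± 0.687 TPM in Cd (adjusted p = 0.221). Of 57 tested genes of mitosis and microtubules (tubulins, kinesins, condensin, cohesin and kinetochore proteins) 0 were called and 3 had an unadjusted p under 0.05. The smallest was that of a beta tubulin (BGIOSGA013254) at 124 ± 19.9 TPM in Fo+Cd and 172 ± 21.6 TPM in Cd (log2 fold change -0.47, adjusted p = 0.180). Of 28 tested histone-modifying enzymes 0 were called and 3, all histone deacetylases and all higher in Fo+Cd, had an unadjusted p under 0.05, a smaller share than among all tested features. The first of these, BGIOSGA021002, had 5.24 ± 0.289 TPM in Fo+Cd and 3.84 ± 0.13 TPM in Cd (log2 fold change 0.36, adjusted p = 0.216). The median log2 fold change of the 28 was 0.14, with 23 above 0 and 5 below, where 49.6% of all tested features were below 0. This lean was not tested. Of 4 DNA methyltransferases 0 were called, with 0 at an unadjusted p under 0.05, and the smallest p was that of CMT2 (BGIOSGA018554, 34.4 ± 1.88 TPM in Fo+Cd and 31.8 ± 0.846 TPM in Cd).

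The arrangement of libraries seen in the histone and MCM genes was also present in several of these lists. Fo+Cd replicate 1 was the highest of 6 libraries in 5 of 7 initiation genes, 13 of 20 fork genes, 4 of 4 genes of nucleotide supply, 3 of 4 of chromatin assembly and 40 of 57 of mitosis, against 27.7% of all tested features. For the cyclins and regulators it was 6 of 14, and for the histone-modifying enzymes 15 of 28. Among the tissue markers it was 2 of 7 tested shoot genes and 1 of 17 tested root genes. The summed list of mitosis and microtubules was 5603, 4180 and 4780 TPM in Fo+Cd replicates 1, 2 and 3, against 4966, 5098 and 5070 TPM in Cd. Most of this sum was tubulin, so it reads tubulin level more than mitosis. An alpha tubulin (BGIOSGA035072) alone had 1836, 1340 and 1580 TPM in Fo+Cd and 1547, 1669 and 1574 TPM in Cd. The summed root markers were 912, 958 and 1075 TPM in Fo+Cd and 872, 799 and 876 TPM in Cd, and 1 of the 17 tested, the expansin EXPA4 (BGIOSGA017864), fell (log2 fold change -0.76, adjusted p = 0.0108). Another 4 of the 17 root genes were lower and 5 higher at an unadjusted p under 0.05 without being called, against 15.4% of all tested features with such a p and 2.45% called. The difference in the sum lay largely in nicotianamine synthase 2 (BGIOSGA010884, 250.3 TPM on average in Fo+Cd and 129 TPM in Cd, adjusted p = 0.168) and in an ammonium transporter (BGIOSGA008641, 132 TPM in Fo+Cd and 72.5 TPM in Cd, adjusted p = 0.125), both named after their values were seen. The 5 lower genes were expansins and Casparian strip membrane proteins. The part of tissue make-up, as these markers read it, in the arrangement of the libraries was not tested.

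**Figure D5:**
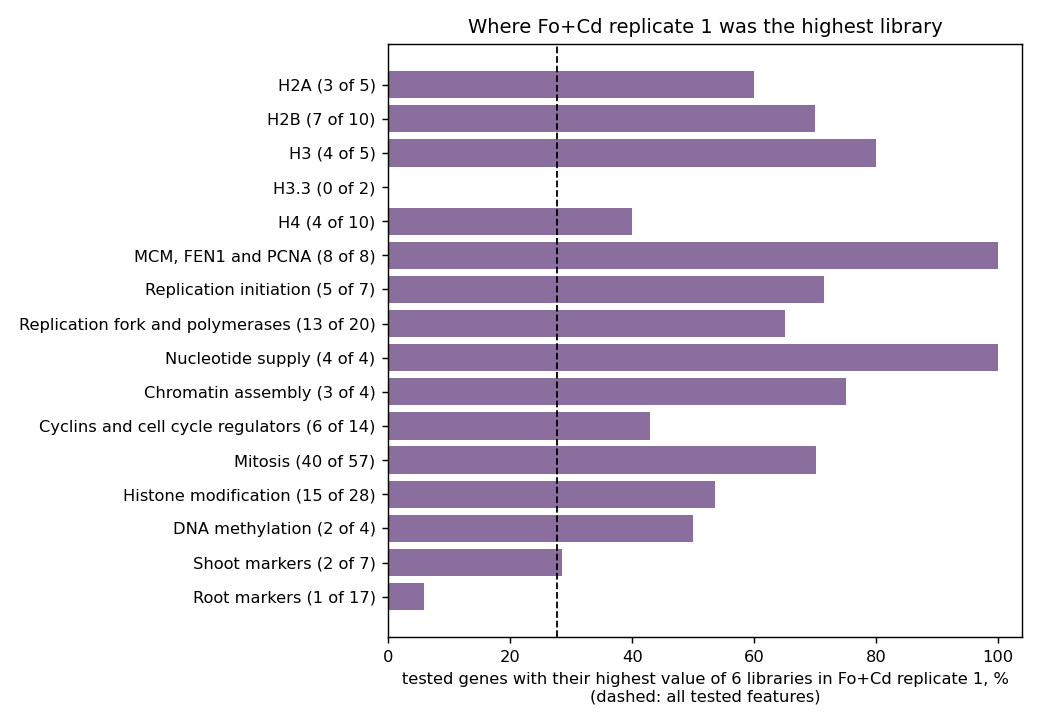
Percent of the tested genes of each list whose highest value of the 6 libraries was in Fo+Cd replicate 1, with counts in brackets; the dashed line is the 27.7% of all tested features. The MCM, FEN1 and PCNA genes (8 of 8) and the genes of nucleotide supply (4 of 4) reach 100%, and the root markers (1 of 17) are below the line.

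A further 11 histone genes described as probable H2A forms or as centromeric histone 3, and the 2 genes described as the helicases MCM8 and MCM9, fall outside the wording used to choose the members. They were added after their descriptions and values were seen. Of the 11 histones 10 were tested, 0 were called by limma and 0 had an unadjusted p under 0.05, with a median log2 fold change of -0.09. Their most abundant gene, an H2A.5 (BGIOSGA010990), had 916, 575 and 633 TPM in Fo+Cd and 726, 705 and 750.0 TPM in Cd, again with Cd between the extremes of Fo+Cd. The H2A.2 gene BGIOSGA025900, with 620.3, 675 and 595 TPM in Fo+Cd and 669, 653 and 727 TPM in Cd, did not have its highest value in Fo+Cd replicate 1. The centromeric histone gene BGIOSGA017824, whose product marks the site of the kinetochore, had 14.6, 10.9 and 12.9 TPM in Fo+Cd and 11.8, 13.4 and 10.8 TPM in Cd (adjusted p = 0.820). MCM8 and MCM9, which act in DNA repair by recombination in Arabidopsis, were not called (smallest adjusted p 0.709, none with an unadjusted p under 0.05), and the ratio of Fo+Cd replicate 1 to the mean of the other two Fo+Cd libraries had a median of 1.03 over these 2 genes.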

How the data were processed

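RNA from rice roots was sequenced in 3 Fo+Cd and 3 Cd libraries. The labels' protocols name TRIzol for extraction and a stranded poly(A) library from 1 µg of total RNA. Aligner, counting program and build: not given in the sources used here. The authors deposited TPM for 42031 features. The unit was recognised from the values, which are not counts, so depth is unknown. The authors' mean per group was not used. Groups were compared with limma 3.58.1 (R 4.3.3) on log2(TPM + 1), with trended and robust empirical Bayes variances and no covariate, over the 21166 features reaching 1 TPM in 3 or more libraries. The threshold was an adjusted p of 0.05 (Benjamini-Hochberg). Because of the added 1 TPM, fold changes of low genes are understated. The test was tried on simulated data. Alternatives changed the pseudocount, the filter, the scaling (factors by the trimmed mean of M-values, or quantiles), the variance settings, the replicate block and the libraries included.

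The members and lists were chosen with earlier results of these data known. Lists were matched by description, with "origin of replication complex" added to the wording for initiation once the descriptions had been seen. Genes were named if they encode replication proteins, were called, were among the 2 most abundant or had the largest difference of their histone class, or had the smallest p of a list; H3.3 was counted with H3 for this. Other names were chosen after their values were seen. Deviations from group means in libraries of the same replicate number correlated at -0.03, 0.08 and 0.07, so the numbers were not taken to pair libraries.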

Additional observations from a re-analysis of the deposited data

How the results depend on the processing

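No histone or replication gene was called under any of the 14 other settings tried, with 38 or 40 of them tested, nor with the 13 added histone and MCM genes, an alternative chosen after the data were seen (median log2 fold change then -0.06). The number called over all features, 518 (365 higher and 153 lower), was 189 to 726 with 1 library left out (137 to 367 higher and 26 to 359 lower). It was 269, 253 and 189 without Fo+Cd replicates 1, 2 and 3, and 310, 726 and 240 without Cd replicates 1, 2 and 3; fewer libraries entered each of these comparisons. With no filter on low values 96 were called lower. With the replicate number as a block, the replicate block left 353 calls, 239 of them higher, and changed no call among the histone and replication genes. The median of the members was -0.12 to 0.02 with 1 library left out and -0.06 to -0.04 under the other alternatives. TMM-type scaling gave 1 member (an H3 gene) an unadjusted limma p of 0.0492, where 15.6% of all tested features were under 0.05. Without Cd replicate 2, 2 members (both H2A, both lower) had an unadjusted p under 0.05, against 18.1% of all tested features. Their smallest adjusted p was 0.133. TPM keeps no depth, so counting error could not be separated from the spread between libraries, and 3 libraries per group limit the precision of every difference.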
